A study of Mus musculus with 4 samples.

Results

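Target-first chimeras are hybrid reads in which the piece of target RNA comes before the miRNA. They were examined in the AGO2-CLASH data of mouse mesangial cells (MMC), the contractile cells that hold the capillaries of the glomerulus together. The members were selected on the deposited alignments. Both segments had to lie in the sense direction, at least 16 nt of the miRNA had to be aligned, and the target segment had to end before the miRNA segment began. This gave 5468 reads (3714 distinct, with each sequence counted once per library), out of 36318 chimeric reads (29067 distinct, counted alike) in the 4 libraries. Just inside the length threshold, 206 distinct reads had an alignment of 16 nt, and just outside it 442 distinct reads of the same order and orientation had one of 15 nt. The opposite order, with the miRNA before the target, held 4718 reads (3766 distinct) under the same limits and served as the comparison. Only 3 distinct reads were listed in both orders.

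The libraries came from primary MMC of wild-type C57BL/6J mice (WT A and WT B) and of mice homozygous for a CRISPR-Cas9 nickase deletion in the miR-379 gene (miR-379KO A and miR-379KO B), all cultured without treatment. The labels do not say whether A and B came from separate animals, so the spread within a genotype may be partly technical. In CLASH, RNA is cross-linked to the Argonaute protein AGO2 by ultraviolet light, AGO2 is pulled down, and RNA ends that lie close together in the complex are ligated. AGO2 holds the 5′ end of the miRNA in a pocket of the protein, and bases 2 to 8, the seed, are laid out first for pairing with a target. The most commonly described hybrid is therefore the miRNA with the target joined to its 3′ end. A target-first read has the 3′ end of a target fragment next to the 5′ end of the miRNA.

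The miRNAs that led the target-first reads are printed here as RNA with the seed in capitals, because those with the let-7 seed and the others were built differently in the reads. They match the RefSeq entries (GRCm38.p6), except that miR-709 was read from the deposited duplexes. let-7b-5p lies at chr15:85707325-85707346 (plus strand), miR-3473b at chr10:41670774-41670793 (plus strand), miR-2137 at chrX:72992113-72992133 (plus strand) and miR-1195 at chr17:70860558-70860580 (minus strand). Of the 259 miRNAs listed, 221 were found in the RefSeq table, all with the same sequence.
let-7b-5p: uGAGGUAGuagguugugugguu
let-7c-5p: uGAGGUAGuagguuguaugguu
let-7e-5p: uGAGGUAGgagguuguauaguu
miR-3473b: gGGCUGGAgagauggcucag
miR-3473e: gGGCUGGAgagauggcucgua
miR-2137: gCCGGCGGgagccccagggag
miR-1195: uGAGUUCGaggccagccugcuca
miR-5126: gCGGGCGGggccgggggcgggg
miR-709: gGAGGCAGaggcaggagga
miR-149-3p: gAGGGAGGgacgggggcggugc
miR-690: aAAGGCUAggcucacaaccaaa

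The junctions themselves are shown for the most frequent form of a few pairs, as DNA with the miRNA segment in capitals and with target bases and any unaligned bases between the segments in lower case. In the let-7b-5p reads with Gm23212, Gm25789 and mt-Rnr1 the first base of the miRNA followed the last aligned base of the target directly. In the reads of miR-3473b, miR-1195 and miR-2137, 5, 8 and 12 unaligned bases lay between the segments.
let-7b-5p with Gm23212: ctacctgaagatcttTGAGGTAGTAGGTTG
let-7b-5p with Gm25789: actctctcactgattTGAGGTAGTAGGTTG
let-7b-5p with mt-Rnr1: gtaagcaaaagaatcTGAGGTAGTAGGTTG
miR-3473b with Ncbp3: ctctccagccaccttttGGGCTGGAGAGAT
miR-1195 with Neat1: gtaaaccaggaggatcacGAGTTCGAGGCC
miR-2137 with Gm42418: ggaaacgatcccggagaaGCCGGCGGGAGC

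The libraries differed in depth and in repeated sequences. The WT libraries held 16324 (A) and 7192 (B) chimeric reads and the miR-379KO libraries 6326 (A) and 6476 (B). Where values are given for all libraries, those of A precede those of B. Distinct sequences made up 87.0% and 67.7% of the WT reads and 68.3% and 87.7% of the miR-379KO reads, a split that does not follow genotype. The reads carry no molecular identifier, so intervals cover counting error only, and fewer cells of a type cannot be told apart from less RNA per cell. As target genes in any chimeric read, 3 of 7 mesangial markers were listed (Acta2, Des and Pdgfrb), with 30 and 22 reads in WT and 23 and 17 in miR-379KO. Podocyte markers had 5 reads in all, and none of the 4 endothelial, 5 tubule and 4 leukocyte markers was listed. Among the target-first reads Acta2 and Pdgfrb were listed, with 8 reads.

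The share of target-first reads among the chimeras overlapped between the genotypes. Per 10000 chimeric reads, WT A had 1315 (95% Clopper-Pearson interval 1263 to 1367) and WT B 1760 (1673 to 1850). For miR-379KO, A had 1736 (1643 to 1831) and B had 1479 (1394 to 1568). The groups overlapped, and the WT mean minus the miR-379KO mean was -70.0 per 10000 (exact permutation test over the 4 libraries, two-sided p = 1.0, where the smallest p possible is 0.33). Leaving out WT A or miR-379KO A turned the direction. With each distinct read counted once the difference was -171, and without the reads that continue along the genome (described with the read ends) -282. Of the long sense reads of either order, 53.1% and 54.7% had the target first in WT and 56.6% and 50.6% in miR-379KO. The groups overlapped here too, with a difference of 0.30 percentage points (exact permutation p = 1.0).

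A few miRNAs carried most of the target-first reads. Of the 259 miRNAs listed, 131 had a single read, and 79.9% of the reads listed at least one of the first 10. miR-3473b had 640 and 164 reads in WT and 117 and 104 in miR-379KO (1025 in all). miR-2137 had 92 and 388 reads in WT and 254 and 71 in miR-379KO, so that it was high in one library of each genotype. miR-1195 followed with 378 and 110 reads in WT and 61 and 66 in miR-379KO. The reads of miR-5126 numbered 133 and 182 in WT and 165 and 83 in miR-379KO. The let-7 family, which restrains growth genes in differentiated cells, came next. let-7b-5p had 46 and 70 reads in WT and 128 and 118 in miR-379KO. Behind miR-709 (316 reads), let-7c-5p had 51 and 44 in WT and 63 and 114 in miR-379KO. miR-149-3p (251 reads), miR-3473e (232) and miR-690 (160) completed the first 10. Per chimeric read, 7 of these 10 did not overlap between the genotypes. let-7b-5p, let-7c-5p and miR-149-3p were higher in both miR-379KO libraries, and miR-3473b, miR-1195, miR-709 and miR-3473e were higher in both WT libraries. Of the 32 miRNAs with at least 10 target-first reads, 10 lay higher in both miR-379KO libraries and 7 in both WT libraries, beside 13.6% and 21.1% of the miRNA rows of all arrangements of reads with that minimum. miR-3473e and miR-3473b share a seed and most of their bases, and all but 3 of the distinct reads listing miR-3473e had a longer or equal alignment to another miRNA.

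The order of the ranking was not that of the miRNA-first reads. For miR-3473b, miR-5126 and miR-1195, 95%, 94.1% and 91.7% of the long sense reads had the target first. For let-7b-5p and let-7c-5p the figures were 63.0% and 69.7%. miR-690, which had 2300 miRNA-first reads, had 6.50% target first. The order of the segments in a read was used by the rule, so these values describe the members and were not tested. miR-690 made up 1835 of the 3766 distinct miRNA-first reads and 136 of the 3714 target-first ones, and it weighs on pooled comparisons of the orders.

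**Figure D1:**
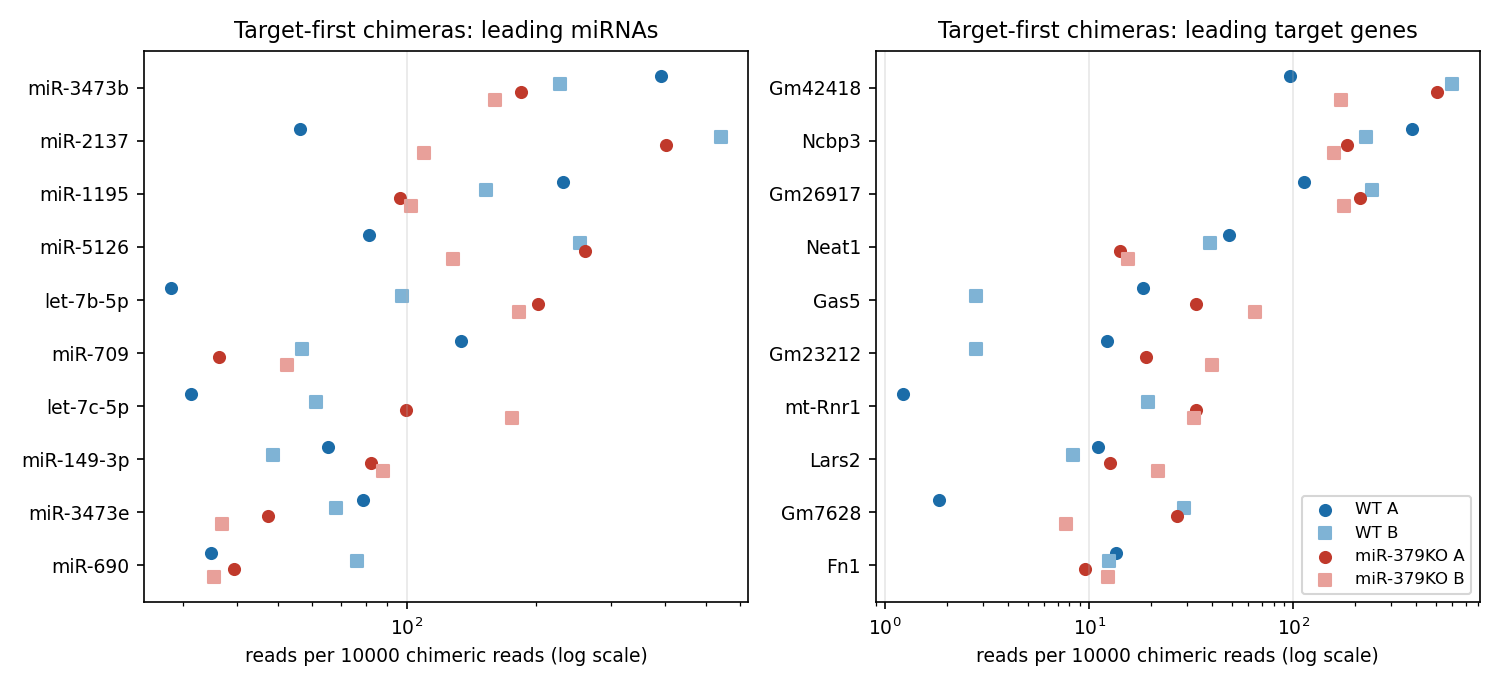
Target-first reads per 10000 chimeric reads of the library (log axis) for the 10 miRNAs and 10 target genes with the most reads, one point per library (blue WT, red miR-379KO; circles A, squares B). miR-2137 and Gm42418 were highest in WT B and miR-379KO A, and 7 of the 10 miRNAs and 7 of the 10 genes did not overlap between the genotypes, in either direction. Of all miRNA rows with at least 10 reads, 13.6% were higher in both miR-379KO libraries and 21.1% in both WT libraries. For gene rows the shares were 10.2% and 21.8%. Reads are shared between miR-3473b and miR-3473e, and between Gas5 and Gm23212.

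Among 2065 target genes, 1116 had a single read. The first 10 genes were listed with 55.8% of the reads. Gm42418 had 158 and 432 reads in WT and 319 and 111 in miR-379KO. Gm26917 had 185 and 174 in WT and 134 and 115 in miR-379KO. Both are gene models on chromosome 17 with sequence like ribosomal RNA, so the reads may equally come from other ribosomal copies. Ncbp3, a nuclear cap-binding protein, had 625 and 163 reads in WT and 116 and 102 in miR-379KO. Neat1, the long noncoding RNA that builds paraspeckles, had 79 and 28 reads in WT and 9 and 10 in miR-379KO. Gas5, a noncoding host gene of small nucleolar RNAs (snoRNAs), had 30 and 2 reads in WT and 21 and 42 in miR-379KO. The mitochondrial rRNA of the small ribosomal subunit, mt-Rnr1, had 2 and 14 in WT and 21 and 21 in miR-379KO. The snoRNA gene Gm23212 (60 reads), Lars2, the mitochondrial leucyl-tRNA synthetase (46), Gm7628 (46) and fibronectin, Fn1 (45), completed the first 10. Per chimeric read, Gas5, Gm23212, mt-Rnr1 and Lars2 were higher in both miR-379KO libraries and Ncbp3, Neat1 and Fn1 in both WT libraries. Of the 45 genes with at least 10 target-first reads, 19 were higher in both miR-379KO libraries and 11 in both WT libraries, beside 10.2% and 21.8% of all gene rows with that minimum. Genes at the same locus and copies of a sequence can share reads, so 19 and 11 overstate the number of separate targets. The counts in each library were identical for Gm23638, Gm23681, Gm26884 and Gm27857, and for Rnu3b1, Rnu3b2, Rnu3b3 and Rnu3b4. The same held for mt-Atp6 and Gm10925, and for mt-Co2 and Gm28661. Fn1 had more miRNA-first reads (96) than target-first ones. For mt-Rnr1 no long sense miRNA-first read was listed.

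Ribosomal RNA-like targets, that is Gm42418, Gm26917, AY036118, Rn18s-rs5 and the mitochondrial rRNA genes, were listed with 17.1% and 40.5% of the distinct target-first reads in WT and 37.2% and 26.5% in miR-379KO. Among the miRNA-first reads they were listed with 8.31% to 11.7%. Without miR-690 the miRNA-first shares were 20.3% and 19.6% in WT and 18.3% and 20.4% in miR-379KO, and the target-first shares 17.7% and 43.1% in WT and 38.5% and 27.2% in miR-379KO, so that the order turned in WT A. The target-first share of all reads was higher in the libraries with more repeated sequences, and its part in the values of miR-2137 and miR-5126 was not tested.

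Of the 5 pairs with the most distinct reads, those at Ncbp3 were the most concentrated on one place. miR-3473b with Ncbp3 had 390 distinct reads, of which 372 ended within 2 nt of base 5913 of the Ncbp3 transcript. The median segment with that end lies in the 3′UTR at chr11:73083082-73083124 (plus strand, GRCm38). miR-3473e had 101 distinct reads there, 94 of them with that end. miR-2137 with Gm42418 had 290 distinct reads, and 178 ended within 2 nt of chr17:39847505 (plus strand). miR-5126 with Gm26917 had 241, and 163 ended within 2 nt of chr17:39846341 (plus strand). miR-149-3p with Gm26917 had 107, and 52 ended within 2 nt of chr17:39845879 (plus strand). The reads of miR-1195 with Neat1 (65 distinct) also sat at one place, 58 of them ending within 2 nt of chr19:5830479 (minus strand). In contrast, the 500 distinct reads of miR-1195 as a whole were assigned to 303 genes, and the 288 of miR-709 to 243 genes.

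The aligned part of the miRNA divided the members. In let-7 family reads (718 distinct, 879 reads, 9 miRNAs with the same seed) the alignment began at base 1 in 98.5%, was identical to the miRNA in 98.7% and came within 2 nt of its 3′ end in 96.2%. In miR-1195 reads base 1 was aligned in 10.6%, and 0 of 500 came within 2 nt of the 3′ end, since base 20 onward was not aligned in any of them. miR-149-3p reads covered base 17 in 98.9% and base 18 in 1.63%, and all carried differences from the miRNA. Counting miRNA bases from 1 at the 5′ end, with the miRNA's base first, G7C was present in 181 and A10C in 177 of 184 distinct reads. miR-2137 reads carried A16G in 316 of 317 distinct reads, so that no read of that miRNA matched it exactly. miR-5126 reads carried C18T in 164 of 422, and 39.1% of them came within 2 nt of the 3′ end.

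**Figure D2:**
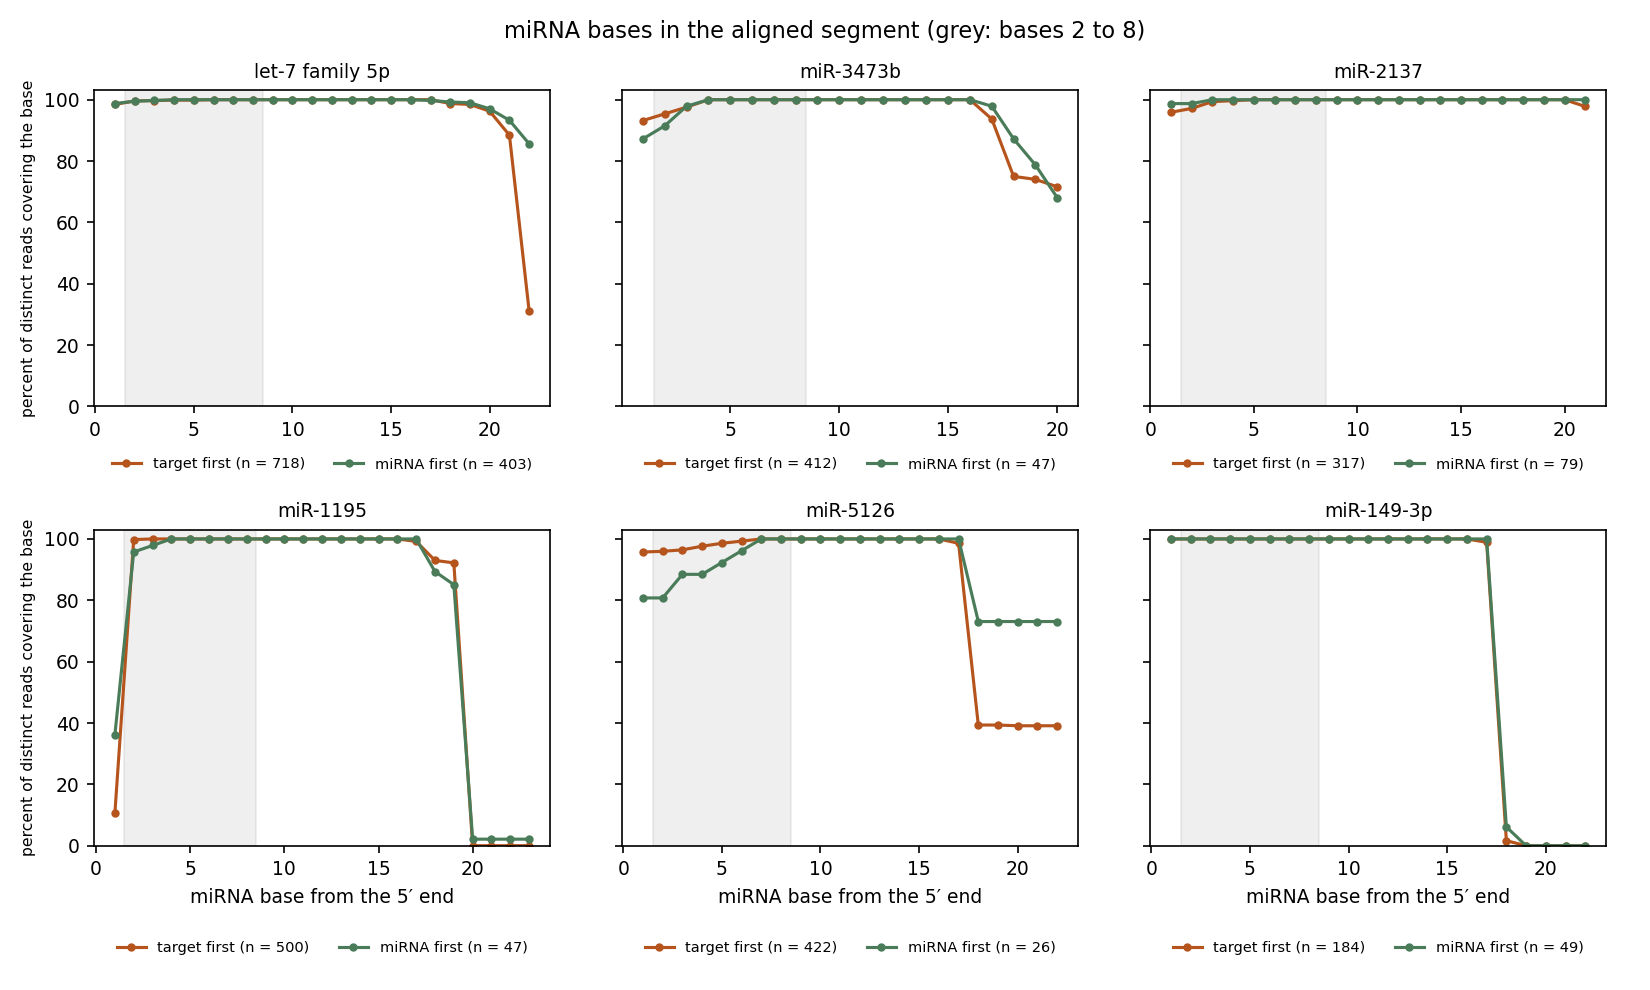
Share of distinct reads (percent, vertical axis) whose alignment covers each miRNA base (horizontal axis, from the 5′ end), for target-first and miRNA-first reads of the let-7 family and 5 other miRNAs, with bases 2 to 8 in grey. Base 22 of let-7 was covered in 31.1% of target-first and 85.6% of miRNA-first reads, and miR-1195 and miR-149-3p lost coverage before the 3′ end in both orders.

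Over all members, the miRNA alignment began at base 1 in 69.0% and 83.0% of distinct reads in WT and in 84.8% and 83.7% in miR-379KO. Among the miRNA-first reads the shares were 84.2% and 90.8% in WT and 90.1% and 88.6% in miR-379KO. The target-first share was lower in 4 of 4 libraries, with a difference of -8.28 ± 4.79 percentage points (SD of the differences, n = 4, exact sign-flip test over libraries, two-sided p = 0.13, the smallest possible). Start at base 2 was the next most frequent, with 578 of 3714 distinct target-first reads. When base 2 was also accepted as a start, the order turned, with 0.39 percentage points more in the target-first reads. Without miR-690 it also turned, to 1.12 percentage points. Within the let-7 family the difference was 0.098 percentage points. Median alignment length was 19 nt in the members, with most reads at 21 nt (824) and 17 nt (675).

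The space between the segments did not divide the miRNAs in quite the same way. The alignment began at base 1 in 98.6% of miR-709 and 93.2% of miR-3473b reads. It was identical to the miRNA in 84.4% and 92.7% of them, yet few of these reads lacked a gap. No unaligned base lay between target and miRNA in 881 of 3714 distinct reads, while 1428 had more than 10 bases there, and the median was 7. In the let-7 family 77.9% had no gap. miR-196a-5p (88.5%) and miR-155-5p (76.0%), which are also identical to the miRNA in 25 of 26 and 25 of 25 distinct reads, were alike in this. The smaller sets of miR-423-5p (13 of 13 distinct reads) and miR-125b-5p (9 of 9) had no gap in any read. By contrast, reads without a gap made up 4.37% for miR-3473b, 3.32% for miR-5126, 1.89% for miR-2137, 1.20% for miR-1195, 1.09% for miR-149-3p and 1.04% for miR-709, with median gaps of 5, 14, 13, 11, 2 and 13 bases.

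Comparing the orders, no gap was found in 15.9% and 20.3% of target-first reads in WT and 31.2% and 36.3% in miR-379KO. Among miRNA-first reads it was found in 9.71% and 22.3% in WT and 22.99% and 18.2% in miR-379KO. The mean difference of 7.61 ± 8.26 percentage points was in the same direction in 3 of 4 libraries (exact sign-flip p = 0.25). It turned without miR-690, to -4.58 percentage points, and without the let-7 family, to -3.11. In the latter, 11.3% of target-first and 14.4% of miRNA-first reads had no gap. The size also moved with the counting, from 2.84 weighted by the deposited count to 18.1 with each miRNA and gene pair counted once per library. The let-7 family alone was compared after its values had been seen and is given without a test. Its target-first shares were 76.2% and 83.8% in WT and 78.0% and 76.2% in miR-379KO, and its miRNA-first shares 50.9% and 47.6% in WT and 42.5% and 45.5% in miR-379KO. All 4 libraries had more reads without a gap in the target-first order, by 31.9 ± 5.0 percentage points (SD, n = 4), and the values of the orders did not overlap. A gap of 1 base was found in 0.97% of target-first and 26.3% of miRNA-first let-7 reads. With gaps of up to 2 bases counted, the let-7 shares were 81.1% and 82.4%.

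**Figure D3:**
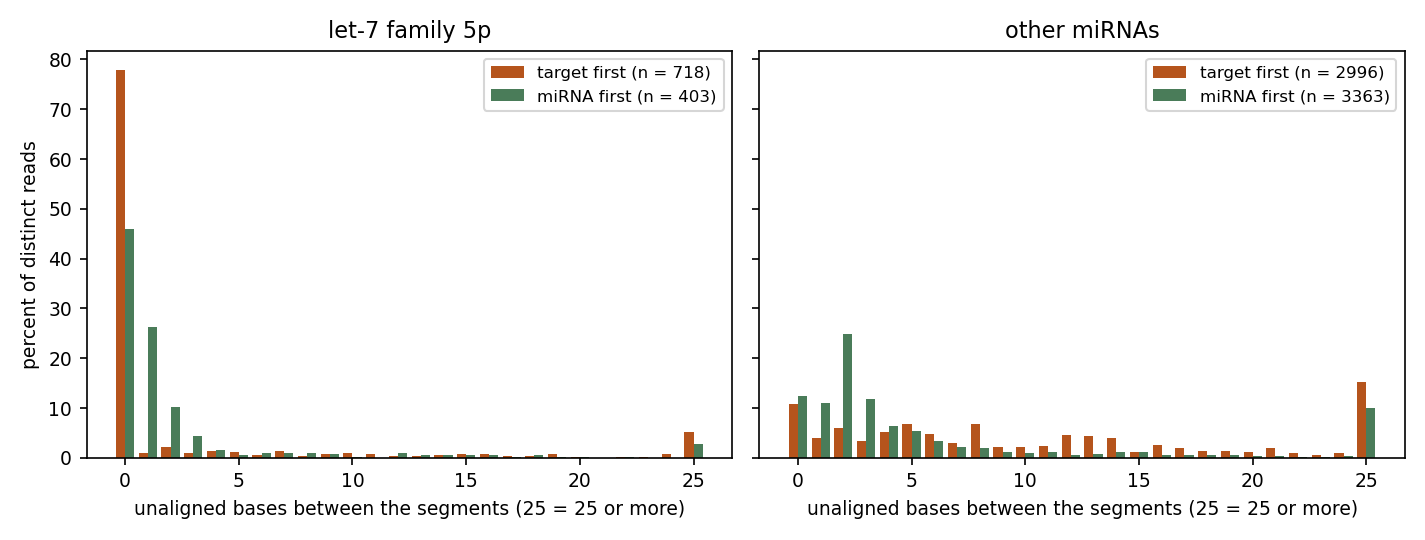
Number of unaligned bases between the segments (horizontal axis, 25 standing for 25 or more) as a percentage of distinct reads (vertical axis), for target-first and miRNA-first reads of the let-7 family (left) and of all other miRNAs (right). Let-7 reads stood at 0 bases in 77.9% (target first) and 45.9% (miRNA first), whereas those of the other miRNAs were spread over many lengths.

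The read also ended differently. It stopped at the last aligned miRNA base in 82.5% of let-7 family reads but in 25.6% of the reads of all other miRNAs, with 1.40% for miR-1195 and 7.89% for miR-2137. Of the 14 miRNAs outside let-7 with at least 20 distinct target-first reads, 5 stopped there in more than 50% of reads, namely miR-155-5p (96.0%), miR-196a-5p (88.5%), miR-5126 (73.5%), miR-214-3p (62.5%) and miR-714 (55.6%). Each miRNA segment was therefore compared, together with up to 10 unaligned bases on each side, with the mouse genome (GRCm38.p6), where at least 4 such bases were present. A match over the full length without a difference was found for 1344 of 2773 such target-first reads (48.5%), and for 903 of 1631 miRNA-first reads (55.4%). Without miR-690 the order turned, with 47.8% of target-first and 46.4% of miRNA-first reads. In the target-first order such a match was found in 438 of 495 reads of miR-1195, 278 of 387 of miR-3473b, 178 of 269 of miR-709, 104 of 143 of miR-149-3p and 71 of 109 of miR-690. In the let-7 family it was found in 3 of 153 reads. It was found in 0 of 313 reads of miR-2137 and 3 of 401 of miR-5126. The share of all distinct target-first reads with such a match was 50.9% and 28.7% in WT and 21.7% and 25.2% in miR-379KO. Whether such reads hold a miRNA or another transcript with the same bases cannot be told apart from the sequence.

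**Figure D4:**
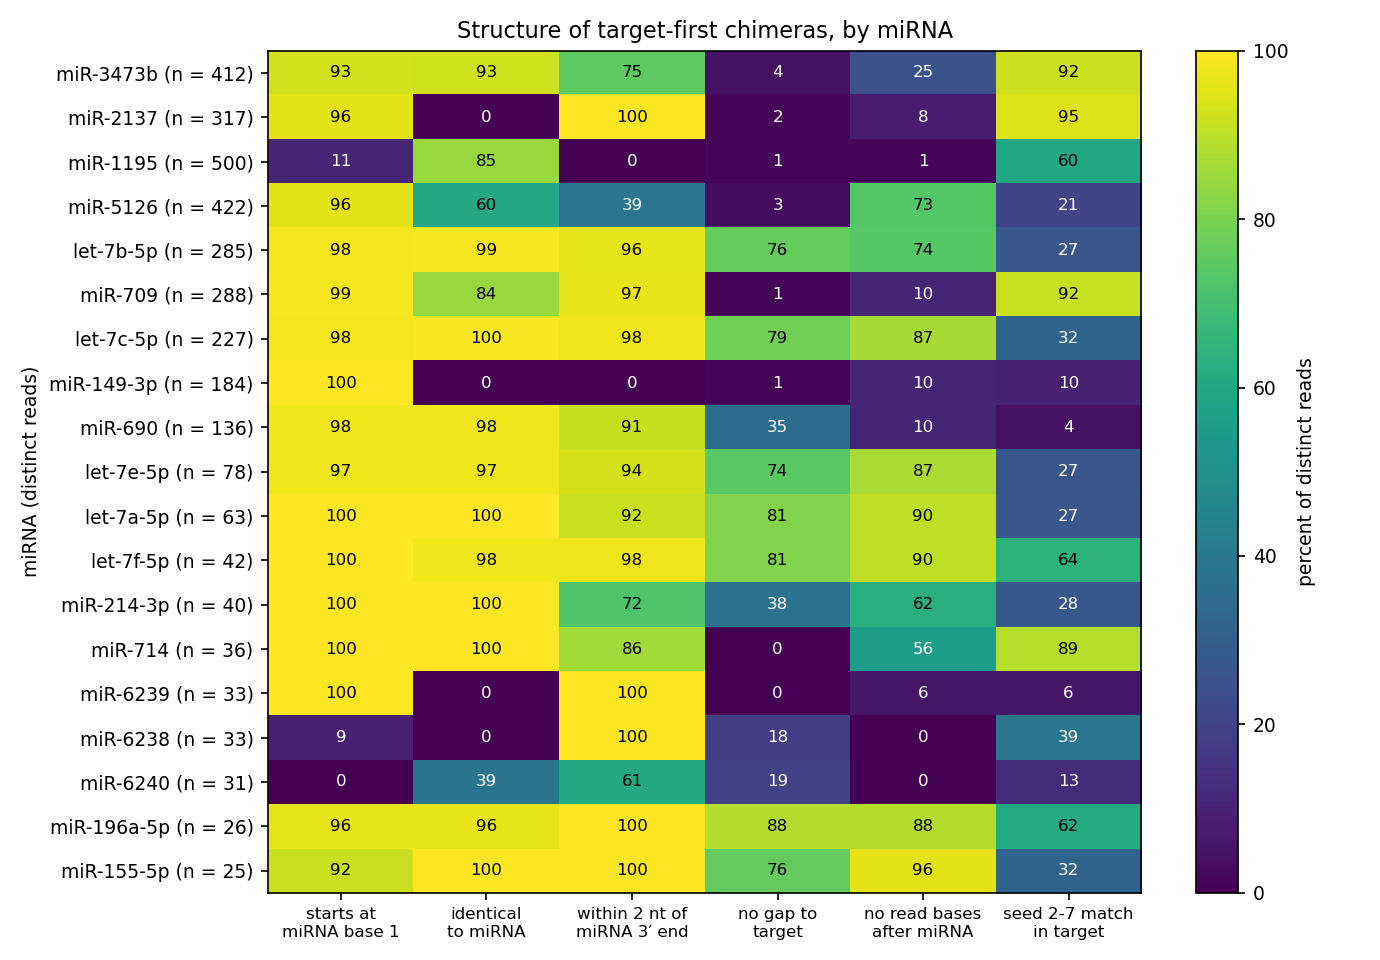
Percentage of distinct target-first reads with each structural feature (columns) for the miRNAs with at least 20 distinct reads (rows, with the number of reads), coloured from 0 to 100. let-7, miR-196a-5p and miR-155-5p rows are high in the first 5 columns, whereas miR-3473b, miR-2137 and miR-709 rows are low for the absence of a gap and high for the seed match.

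Reads with all 3 features, an identical alignment from base 1 with no gap to the target, numbered 818 distinct (990 reads) among the members. This subset was chosen after its values were seen. let-7 family members made up 67.4% of it, led by let-7b-5p (215 distinct) and let-7c-5p (177), with miR-690 (47) and miR-196a-5p (22) the leading others. Per 10000 chimeric reads it held 147 and 253 in WT and 405 and 482 in miR-379KO, so that both miR-379KO libraries lay above both WT libraries, a WT minus miR-379KO difference of -243 given as a description, without a test. The miRNA-first reads with the same features had 106 and 306 in WT and 281 and 273 in miR-379KO, and the genotypes overlapped there. The targets of the subset were spread out, with 412 of 496 genes listed once. Gas5 (64 distinct) and mt-Rnr1 (40) led, followed by Gm42418 (21), Ncbp3 (15) and Fn1 (14, with 11 different miRNAs).

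The let-7 reads at Gas5 fell on 2 snoRNA genes in its introns. Of the 70 distinct target-first reads listed with Gas5, 39 were also listed with Gm23212 and 24 with Gm25789, so 63 of them carry both names. The most frequent end with let-7b-5p was at chr1:161036722 (plus strand) for Gm23212 and at chr1:161038352 for Gm25789. Of 49 distinct let-7 reads assigned to Gas5, 0 held the complement of bases 2 to 7 and 31 held that of bases 3 to 8. At mt-Rnr1, 45 of 46 distinct let-7 reads held the complement of bases 2 to 7. Next in number of distinct let-7 reads among the protein-coding genes were β-actin, Actb (7, all with the seed match), Fn1 (7, with 1), the secreted glycoprotein Fstl1 (6, with 5) and, with 5 each, the basement membrane protein Nid1 (3 with it), the focal adhesion protein Lpp (0) and the matrix protein Tnc (3). Overlap with the genes of the miRNA-first let-7 reads was 80 genes, which is 12.5% of the 638 target-first and 23.4% of the 342 miRNA-first genes.

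Seed matches were searched as the complement of miRNA bases 2 to 7 in the target segment. They were present in 1842 of 3714 distinct target-first reads (49.6%). By library the share was 55.3% and 51.7% in WT and 43.4% and 41.4% in miR-379KO. For miRNA-first reads it was 17.2% and 30.4% in WT and 31.5% and 26.3% in miR-379KO. The target-first share was higher in 4 of 4 libraries, by 21.6 ± 11.6 percentage points (exact sign-flip p = 0.13). Without miR-690, which had a match in 4.41% of target-first and 4.63% of miRNA-first reads, the difference was 6.61 percentage points and positive in WT A and WT B alone (exact sign-flip p = 0.50). The same bases were found in 2.47% to 5.35% of the target segments listed with other seeds in the same library. miR-2137 had a match in 94.6%, miR-3473b in 92.5% and miR-709 in 91.7% of target-first reads, but miR-5126 in 21.1% and miR-149-3p in 9.78%. Of 16 miRNAs with at least 20 distinct reads in each order, 5 had the higher share of matches in the target-first order and 11 the lower. With each miRNA and gene pair counted once per library the difference was 12 percentage points.

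In the let-7 family the seed match was found in 32.9% and 35% of target-first reads in WT and in 29.9% and 29.2% in miR-379KO. Target segments of other miRNAs held the same bases in 0.00% to 0.90%. miRNA-first let-7 reads had 28.1% and 41.9% in WT and 51.7% and 36.4% in miR-379KO. The mean difference was -7.74 ± 10.9 percentage points (3 of 4 libraries lower, given without a test). With the complement of bases 2 to 8 it was 2.63, with 28.2% of target-first and 25.5% of miRNA-first reads, so the direction in let-7 depends on the bases taken. In let-7 reads on 3′UTRs the match was present in 44 of 161 target-first and 72 of 110 miRNA-first reads, and on coding sequence in 35.1% and 38.9%.

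The deposited minimum free energy of the miRNA and target duplex, given without a unit and more negative for a stronger duplex, averaged -28.4 and -27.7 in WT and -27.0 and -25.4 in miR-379KO. miRNA-first reads averaged -23.7 and -23.3 in WT and -23.1 and -23.05 in miR-379KO. Target-first duplexes were lower in 4 of 4 libraries, with a difference of -3.85 ± 1.04 (exact sign-flip p = 0.13), and the orders did not overlap. The lowest means were those of miR-149-3p (-35.5), miR-5126 (-35.3) and miR-709 (-34.6), and the let-7 family averaged -20.3. With each miRNA and gene pair counted once per library the pooled difference was -2.09, and within single miRNAs its direction was not general. Of the 16 miRNAs with at least 20 distinct reads in each order, 11 had the less negative mean in the target-first order, among them miR-3473b (-30.8 against -33.9 in the miRNA-first order), miR-1195 (-28.7 against -30.8) and miR-690 (-22.2 against -23.2). miR-709 (-34.6 against -30.8) and miR-149-3p (-35.5 against -31.2) were more negative. Within let-7, target-first duplexes were less negative than miRNA-first ones in 4 of 4 libraries, by 0.97 ± 0.18 (SD, n = 4, given without a test).

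Pairing within the deposited duplexes had its own profile for each miRNA, and base 1 was unpaired in all of those plotted. let-7 bases 4 and 5 were paired in 98.2% and 98.1% of target-first reads, and base 10 in 61.3%. miR-2137 was paired over bases 2 to 9 in at least 95.6% of reads and at base 10 in 7.26%. miR-690 was the opposite, with bases 2 to 7 paired in at most 4.41% and base 9 in all 136 distinct reads. miR-3473b was paired over bases 2 to 17 in at least 94.2% of its reads.

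**Figure D5:**
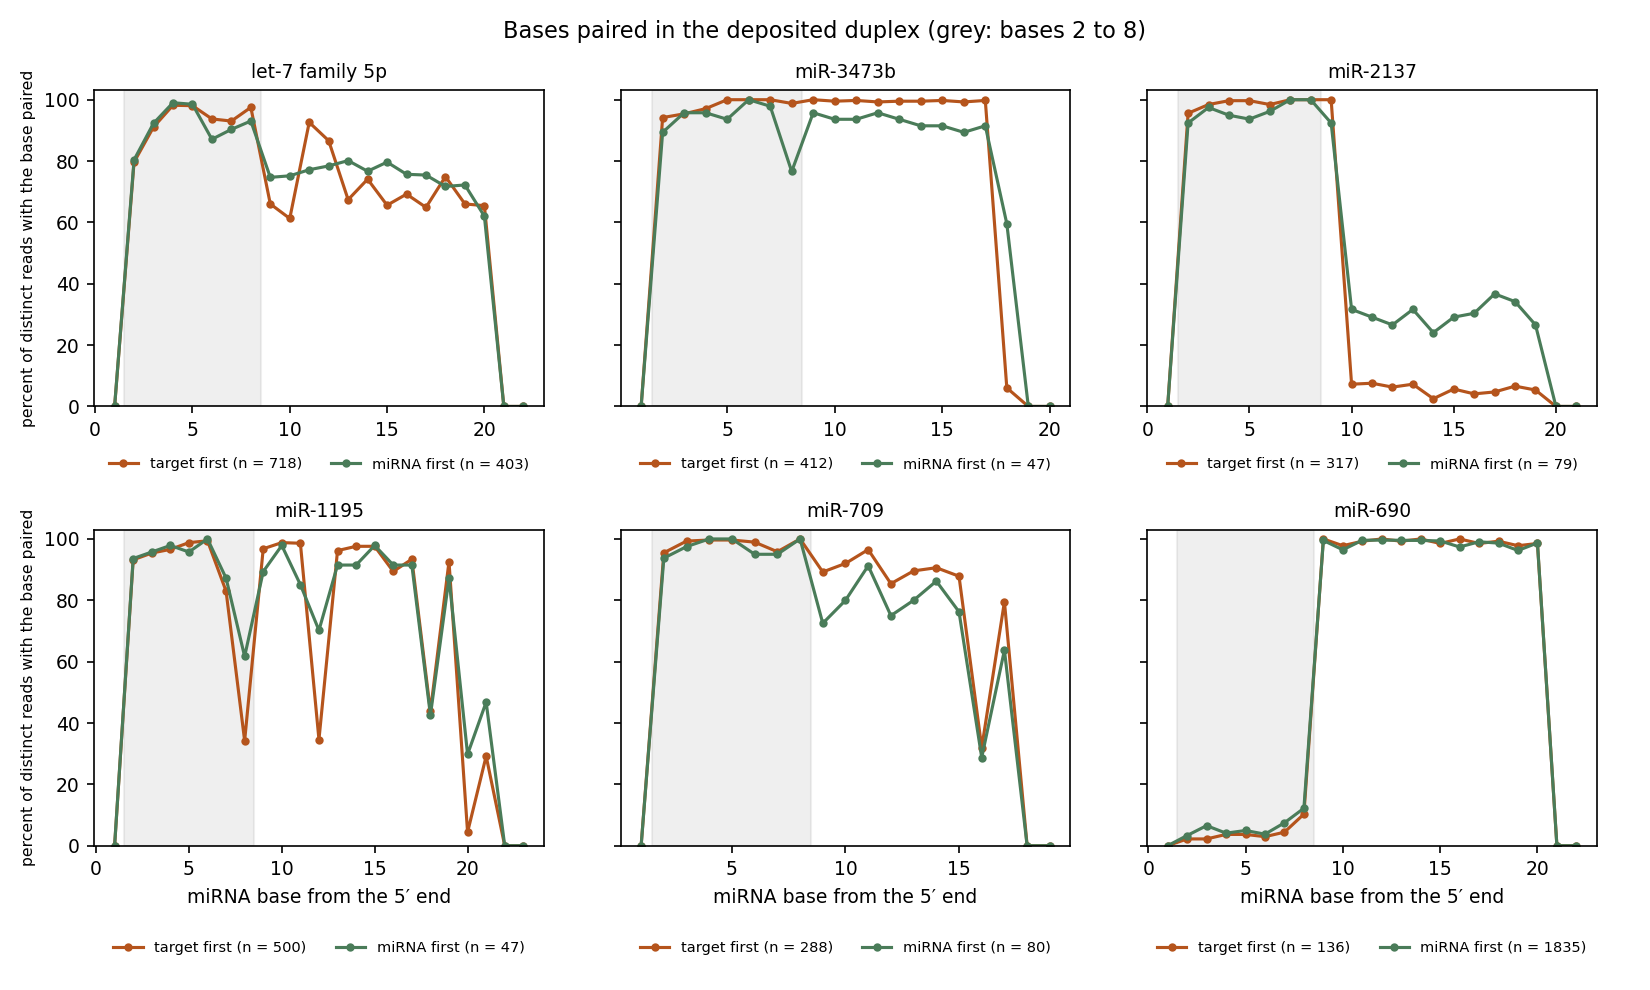
Share of distinct reads (percent, vertical axis) in which each miRNA base (horizontal axis) is paired in the deposited duplex, G:U pairs included, for target-first and miRNA-first reads of the let-7 family and 5 other miRNAs, with bases 2 to 8 in grey. miR-690 was paired outside the seed in both orders, and miR-2137 mainly within it. Bases 11 and 12 of let-7 were paired in 92.6% and 86.6% of target-first and 77.2% and 78.4% of miRNA-first reads.

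Targets in mRNA lay mostly in the 3′UTR. Of 1468 distinct target-first reads on a coding transcript with a known coding region, 1042 lay in the 3′UTR (71.0%), 381 in the coding sequence and 45 in the 5′UTR. By library the 3′UTR share was 80.8% and 68.7% in WT and 58.0% and 59.9% in miR-379KO. For miRNA-first reads it was 69.4% and 59.4% in WT and 57.9% and 55.2% in miR-379KO. The mean difference was 6.4 ± 5.02 percentage points (higher in 4 of 4 libraries, exact sign-flip p = 0.13). With alignments of 18 nt or more it was 3.15 and higher in 3 of 4 libraries (exact sign-flip p = 0.25). With each miRNA and gene pair counted once per library it was 4.38 (58.2% of target-first and 53.8% of miRNA-first reads), and weighted by the deposited count 11.9. Without miR-690 it was 19.1 and without the let-7 family 12.2. In the let-7 family the 3′UTR share was 42.5% in target-first and 42.8% in miRNA-first reads. Among target-first reads identical from base 1 with no gap, the coding sequence led, with 240 of 436 reads against 183 in the 3′UTR.

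Tests of genotype called no single target-first miRNA or gene. They were run with edgeR's quasi-likelihood test on a table with a row for each miRNA (or gene) in each of 5 arrangements of reads. Of 655 miRNA rows, 0 passed an adjusted p of 0.05 (0% called), and of 568 gene rows 1 passed (0.176% called), which was no target-first row. Among the 32 target-first miRNA rows with at least 10 reads, 0 were called, and 5 had an unadjusted p under 0.05. DESeq2 also called 0, with 2 at that level. Among the 45 target-first gene rows 0 were called, with 8 at an unadjusted p under 0.05, and DESeq2 called 0, with 2. miRNAs and genes with fewer reads were left out by this minimum.

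The smallest p-values toward higher counts in miR-379KO belonged to let-7. let-7b-5p had a log2 fold change (miR-379KO over WT) of 1.61 (edgeR adjusted p = 0.84) and let-7c-5p of 1.59 (edgeR adjusted p = 0.84). For let-7d-5p it was 2.55 (edgeR adjusted p = 0.84), on 2 and 1 reads in WT and 4 and 6 in miR-379KO. In the other direction miR-3473a was listed with 11 and 2 reads in WT and 0 in both miR-379KO libraries, where 3 reads would be 4.74 and 4.63 per 10000 (edgeR adjusted p = 0.89). miR-709 had a log2 fold change of -1.02 (edgeR adjusted p = 0.98) and miR-1195 of -0.90 (edgeR adjusted p = 0.99). Of the genes, Gas5 (log2 2.19), Gm25789 (2.68) and mt-Rnr2 (2.73) came first toward miR-379KO, each with an edgeR adjusted p = 0.74. All 24 distinct reads of Gm25789 and all 39 of Gm23212 were also listed with Gas5, so these rows are not separate results. Neat1 (-1.42), Ncbp3 (-0.72) and C030017G13Rik (-1.66) came first toward WT, each with an edgeR adjusted p = 0.96. The fits that leave out 1 WT library take their spread from the miR-379KO pair alone and assume that the lone WT library varies like it. Without WT A, edgeR called Gas5 (log2 4.36, adjusted p = 1.3e-04) and Gm23212 (3.63, adjusted p = 0.038). Without WT B it called Gm42418 (2.06, adjusted p = 0.0021) and mt-Rnr1 (4.84, adjusted p = 0.0014).

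miRNAs known from mesenchymal cells, such as let-7, miR-214 and miR-125, accounted for 224 and 187 target-first reads in WT and 279 and 361 in miR-379KO, through 39 of the 96 such miRNAs found in any chimeric read. The let-7 family gave 879 of these 1051 reads, so the values of the list largely restate those of let-7. They were not used to name the cell type. Of the 27 miRNAs of other cell types, such as liver, neurons or blood cells, that were found in any chimeric read, 1 was listed in the target-first reads, with 1 read (miR-150-3p). No target-first read listed miR-379-5p, miR-379-3p or the genes Fis1, Edem3 and Txn1, which allows up to 1.84 to 4.74 reads per 10000 in each library. The miR-379 hybrids printed in the paper, that with Fis1 among them, have the miRNA before the target. They fall outside the members by the rule. Extracellular matrix genes had 96 target-first and 257 miRNA-first reads, through 15 of 32 genes in each order, with Fn1 (45 target-first reads), collagen Col1a1 (13) and the matricellular factor Ctgf (7) leading. Contractile and cytoskeletal genes had 60 and 108 reads, led in the target-first order by Actb (12 reads) and non-muscle myosin Myh9 (12 reads, with 1 and 1 in WT and 4 and 6 in miR-379KO). The smooth muscle actin Acta2 had 7. Most members of these lists had too few target-first reads to be tested. Of the 2 matrix genes (Fn1 and Col1a1), 2 contractile genes (Actb and Myh9) and 10 mesenchymal miRNAs that reached 10 reads, edgeR called 0, beside 0.176% of all gene rows and 0% of all miRNA rows.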

How the data were processed

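Chimeric reads of 4 AGO2-CLASH libraries (MMC, WT A and B, miR-379KO A and B) were analysed. The authors merged read pairs with pear, removed merged reads that aligned to the genome or transcripts with Bowtie2 2.1.0 (GRCm38.p5), and searched the rest with blastn against mature miRNAs and GENCODE transcripts, so both segments of a read are short local alignments. The deposited count is the number of reads with exactly that sequence. The deposited score named minimum free energy was used as given. The aligner steps keep mismatched and partly covered miRNAs.

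Each distinct read was counted once per library with its count. Where it was listed several times, the longest miRNA alignment, then file order, gave its structure. Counts were tested with edgeR 4.0.16 (TMM, at least 10 reads over the 4 libraries, Benjamini-Hochberg adjustment), with DESeq2 1.42.0 as an alternative, and the script was checked on simulated data. Structures were compared over libraries by exact sign-flip tests and genotypes by exact permutation. Transcript parts came from GENCODE M21 and genome matches from blastn 2.17.0. Of the target-first transcripts, 96.9% had the same version there. The members and lists were chosen with earlier results of these data known. Named were the 10 leading miRNAs and genes, the 5 leading pairs, the 3 smallest p-values in each direction and fixed lists.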

Additional observations from a re-analysis of the deposited data

How the results depend on the processing

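The difference between genotypes in target-first reads had no stable direction. Leaving out 1 library moved it from -293 to 153 per 10000, and moved the difference in the target-first share of long sense reads from -2.68 to 3.29 percentage points. That share also turned with distinct reads counted once (-1.23), without mismatched miRNA alignments (-0.080) and, in alternatives added after seeing the data, in reads identical from base 1 with no gap (-9.70) and without reads that continue along the genome (-4.98). Between the orders of segments, start at base 1 turned when base 2 was accepted (0.39), in let-7 alone (0.098) and without miR-690 (1.12). The excess of reads without a gap became -18.7 percentage points when gaps of up to 2 bases were accepted, -3.11 without let-7 and -4.58 without miR-690. In let-7 alone the seed match (-7.74), the free energy (0.97) and the 3′UTR share (-1.5) also turned, and the let-7 seed match became 2.63 with bases 2 to 8. Settings by miRNA were added after seeing the data. Without miR-690 the seed match difference was 6.61 and the 3′UTR difference 19.1. Other values that moved by over 1.5 times and kept their direction included the genotype difference without ribosomal targets (-31.0), with distinct reads counted once (-171) and without reads that continue along the genome (-282), start at base 1 with single miRNAs and genes (-5.31) and without ribosomal targets (-13.1), and no gap with single miRNAs and genes (4.42), 18 nt or more (13.4), weighted by the deposited count (2.84) and without ribosomal targets (16.5). With each miRNA and gene pair counted once, no gap became 18.1, the seed match 12 and the free energy -2.09. The 3′UTR difference became 11.9 weighted by count, 3.15 at 18 nt or more and 12.2 without let-7, and the target-first share of long sense reads 0.12 at 18 nt or more, 0.15 without ribosomal targets and 1.85 with single miRNAs and genes. Each structural difference kept its direction without each library, and that for no gap ranged from 4.13 to 10.8. Target-first miRNA calls stayed at 0 in the alternatives run. Target-first gene calls ranged from 0 to 2 when 1 library was left out and were 0 otherwise. With a replicate block on the letters A and B, 0 miRNA and 0 gene rows of target-first reads were called. The letters do not pair libraries in the labels, and the correlation of same-letter deviations was -0.053 for miRNA and -0.14 for gene rows, so a crossed pairing was also fitted and called 0 and 0 of these rows, with 5 of the 568 gene rows of all arrangements. Depth limits single miRNAs, since 3 reads correspond to 1.84 to 4.74 per 10000.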

Other observations

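Of 3506 different target-first sequences, 130 were found in at least 2 libraries and 20 in all 4. Among all 28227 chimeric sequences, 623 were found in at least 2 libraries. The longest gap between the segments of a target-first read was 125 bases.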
